A study of Mus musculus with 8 samples.

Results

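The 6 major urinary protein genes Mup1, Mup3, Mup7, Mup17, Mup20 and Mup21 were followed in the liver of mice that lack Brap in hepatocytes and of their floxed controls. They were taken from the table by symbol, as 6 of the 24451 genes measured. The members were chosen with earlier results of these data known. Bulk RNA sequencing covered the left liver lobe of 4 Brap LKO mice (Brap fl/fl with the Alb Cre transgene) and of 4 Brap F/F mice (Brap fl/fl without Cre, which the labels call wild type). Both groups were C57BL/6 by the labels (C57BL/6J in the study's methods), carried the floxed allele and were killed at 18 wk of age after a 6 h fast. The methods of the study state that males were used, with both sexes in pilot studies, and that animals were housed in groups unless noted. The albumin promoter drives Cre mainly in hepatocytes, so that most other liver cells keep the gene, and Cre removes exons 2 and 3 of Brap.

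Major urinary proteins are small lipocalins, barrel-shaped proteins that hold volatile molecules in a central pocket. Hepatocytes secrete them into the blood, the kidney passes them into urine, and there they carry and slowly release the scents by which mice recognise sex, identity and territory. Adult males make more of them than females, since the pulses of growth hormone in males act through the receptor GHR, the kinase JAK2 and the transcription factor STAT5B on the liver, together with androgen, thyroid hormone and glucocorticoids. The genes arose by repeated duplication, so that the members of the central set are almost the same in sequence and the members at the edges of the cluster are more divergent.

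The 6 members lie on the minus strand of chromosome 4 of mm10. Mup7 spans chr4:60066469-60070475, Mup1 chr4:60498012-60501960 and Mup17 chr4:61591929-61595871, each with 7 exons in the annotated transcript used. Mup20 spans chr4:62050234-62054158 and Mup3 chr4:62083476-62087342, also with 7 exons, and Mup21 spans chr4:62147932-62150863 with 6. Of the 40 Mup rows of the table, 39 fall between 59956804 and 62150863 on that chromosome, a stretch of 2194 kb.

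To show how alike the members are, the 60 coding bases in which the 6 differ most are printed from the GENCODE transcripts of the same build, with the bases that differ from Mup1 in capitals. Bases are counted from the first base of each coding sequence.
Mup1 bases 212 to 271: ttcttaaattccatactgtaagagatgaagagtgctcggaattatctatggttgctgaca
Mup7 bases 212 to 271: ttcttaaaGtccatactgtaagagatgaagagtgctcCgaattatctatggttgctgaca
Mup17 bases 212 to 271: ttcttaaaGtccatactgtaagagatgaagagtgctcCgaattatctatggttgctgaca
Mup20 bases 215 to 274: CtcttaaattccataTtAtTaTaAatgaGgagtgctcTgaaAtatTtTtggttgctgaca
Mup3 bases 224 to 283: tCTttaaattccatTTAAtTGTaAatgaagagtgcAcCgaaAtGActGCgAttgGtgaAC
Mup21 bases 215 to 274: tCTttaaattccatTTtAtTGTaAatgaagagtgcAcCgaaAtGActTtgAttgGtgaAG

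Mup7 and Mup17 were identical to each other in this window and differed from Mup1 at 2 bases, while Mup20 differed from it at 11, Mup21 at 19 and Mup3 at 21. Over the aligned coding sequence, Mup1 and Mup7 were 99.1% identical (6 mismatches in 705 bases), and Mup17 was 98.7% identical to each of them. Mup20 was 91.1% identical to Mup1, Mup3 was 84.3% identical to Mup1, and Mup3 and Mup21 were 96.3% identical to each other.

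These likenesses limit what a read of 50 bases can tell. Of the 50-base windows of the transcript, 4.54% occurred in no other annotated gene for Mup1, 9.76% for Mup7 and 21.9% for Mup17. The share was 49.5% for Mup20, 80.7% for Mup21 and 84.4% for Mup3. Most of the windows that Mup20 shares are shared with the pseudogene Mup-ps19, which holds 48.0% of them all. How reads that align to several genes were treated is not given in the sources used here. The values of Mup1, Mup7 and Mup17 may therefore stand for a mixture of near-identical genes or may leave out most of their reads. Of the windows of Mup-ps19, 89.8% occur in another member, and it had 0 to 2.94 normalized counts, beside 7995 to 37926 for Mup20. Mup2, Mup15 and Mup19, with 0% of windows unique, averaged 168, 6.66 and 71.9 over the 8 livers. What these low counts say about the treatment of shared reads was not tested.

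**Figure D1:**
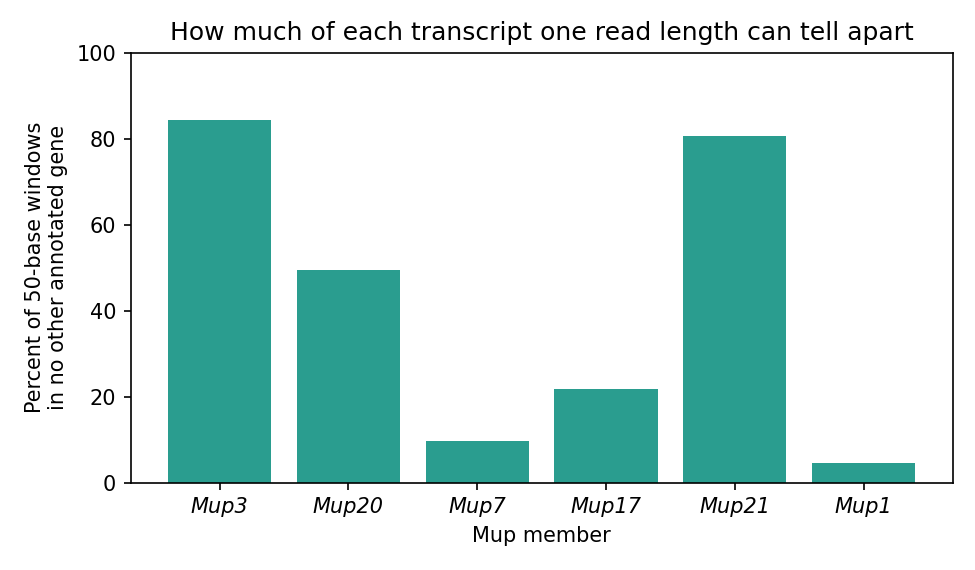
Bars give, for each Mup member, the percent of the 50-base windows of its annotated transcript that occur in no other annotated gene (vertical axis, percent). Mup3 and Mup21 stand above 80%, Mup20 at 49.5%, and Mup17, Mup7 and Mup1 at 21.9% or less.

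The 300 bases around the annotated start (250 before and 50 after it), from RefSeq on GRCm38.p6, matched 4 of the 6 members (Mup3, Mup7, Mup17 and Mup21). The window of Mup17, whose level varied most between livers, and that of Mup3, whose level varied least, are printed 5′ to 3′ on the gene's strand, with the letters TATATAA in capitals.
Mup17 chr4:61595783-61596082 minus: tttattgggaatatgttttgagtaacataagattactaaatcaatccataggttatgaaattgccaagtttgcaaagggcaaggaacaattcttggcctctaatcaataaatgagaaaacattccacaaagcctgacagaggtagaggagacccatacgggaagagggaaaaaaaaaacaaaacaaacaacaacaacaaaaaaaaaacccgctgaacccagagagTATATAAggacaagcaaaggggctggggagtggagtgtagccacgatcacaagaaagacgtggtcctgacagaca
Mup3 chr4:62087268-62087567 minus: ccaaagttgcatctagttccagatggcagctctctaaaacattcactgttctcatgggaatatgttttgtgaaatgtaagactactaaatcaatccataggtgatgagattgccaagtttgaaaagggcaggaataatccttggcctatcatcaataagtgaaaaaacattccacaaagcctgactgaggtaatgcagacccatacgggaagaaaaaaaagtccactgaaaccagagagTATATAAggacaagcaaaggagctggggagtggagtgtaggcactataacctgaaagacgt

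The windows of Mup17 and Mup3 were 88.6% identical over the 246 bases of their best local alignment, and those of Mup17 and Mup7 97.7% over 171. TATATAA, the core of a TATA box, was searched on both strands after the sequences had been seen. It was found in the windows of Mup3, Mup17 and Mup21 but not in that of Mup7. The Mup7 window ended in bases that lie before TATATAA in the Mup17 window. That window therefore does not show whether TATATAA follows in Mup7. TATATAA occurred in 13 of the 14 Mup windows and in 3.46% of all 27025 windows. The STAT letters TTCNNNGAA occurred in 8.47% of all windows and the forkhead letters TGTTTAC in 3.55%, and neither occurred in any of the 14 Mup windows.

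Each liver gave 26280884 to 33313914 reads on genes, and the 6 members together took 0.801% ± 0.0729 of them in Brap LKO and 0.712% ± 0.237 in Brap F/F livers (SD, n = 4 each). Values below are normalized counts, reads divided by the size factor of each liver. Albumin, the defining hepatocyte product, had 1438250 to 3058028 normalized counts, and none of the 9 hepatocyte markers was at 0. Brap itself stood at 4042, 4203, 4065 and 3641 normalized counts with Cre and at 4410.2, 4235, 3994 and 4106 without it, a log2 difference of -0.07 ± 0.07 (SE, limma, adjusted p = 0.631). Counts over the whole gene include the exons that Cre leaves in place and other cells, so that they do not check the labels.

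Brap F/F replicates 2 and 3 stood apart from the other livers. On a first principal component computed without any Mup row, which held 36.8% of the variance of 15317 genes, they lay at 0.574 and 0.558, and the other 6 livers between -0.485 and 0.0266. The labels name no batch that sets these livers apart from Brap F/F replicate 4. Results are therefore given with and without them, a choice made after the data had been seen. The 2 controls that then remain, Brap F/F replicates 1 and 4, stood apart on the second component, which held 22.0% of the variance. They lay at -0.639 and -0.550 on it, and the other 6 livers between 0.0872 and 0.360.

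Across 15352 genes tested with limma on log2(normalized count + 1), 0.769% passed an adjusted p of 0.05 in either direction (102 higher and 16 lower in Brap LKO). None of the 6 members passed. At an unadjusted p under 0.05 limma marked 2 of them, Mup20 and Mup21, beside 15.8% of all genes tested, a share against which the counts at that level for the gene lists below are also to be read, and the edgeR quasi-likelihood test and DESeq2 on recovered reads also marked 2 at that level and called 0. The median log2 difference of the members was 0.68 beside -0.01 for all genes tested. It was 0.20 with edgeR and 0.19 with DESeq2, and -0.49 with limma without Brap F/F replicates 2 and 3.

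Mup20, known as darcin, is the male pheromone that makes a scent mark attractive to females and memorable. It stood at 33302, 36319, 36852 and 37926 normalized counts in Brap LKO livers. In Brap F/F livers it stood at 22114, 10503, 7995 and 32018. Every Brap LKO liver lay above every Brap F/F liver, and the Brap LKO livers lay close together while the Brap F/F livers were spread over 4.00-fold.

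The mean of Mup20 was 36099.7 ± 1981 in Brap LKO and 18157 ± 11099.8 in Brap F/F livers (SD, n = 4 each), 1.99-fold higher in Brap LKO. Its log2 difference was 1.21 ± 0.38 (SE), with a 95% interval from 0.36 to 2.06 and an adjusted p of 0.180 over all genes (limma). The two-sided exact permutation test over the 70 arrangements of the livers gave p = 0.0286, the smallest that 4 against 4 allows. The groups did not overlap in this direction for 1 of the 6 members, beside 5.48% of all genes tested. Without Brap F/F replicate 4 the log2 difference was 1.55 and the adjusted p was 0.0461, and without Brap F/F replicates 2 and 3 the log2 difference was 0.44 ± 0.15 (adjusted p = 0.199, limma).

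Some genes that mark other liver cells also differed between the groups, beside 0.769% of all genes tested that limma called. Of 8 cholangiocyte markers, 2 rose in Brap LKO livers in limma (Cftr, a chloride channel, and Cldn4, a tight-junction protein), with only Cftr called by edgeR, 3 called by DESeq2 (also Epcam, an adhesion protein) and only Cftr called by limma without Brap F/F replicates 2 and 3. The summed level of the 8 ran from 1918 to 3773 in Brap LKO and from 1131 to 2127 in Brap F/F livers. Both Cftr and Cldn4 were at 0 in Brap F/F replicate 1. Of 8 stellate cell and fibroblast markers, Pdgfrb, a growth factor receptor, rose in limma and edgeR, DESeq2 called 4 (also the collagen genes Col1a1, Col1a2 and Col3a1), and limma called 0 without Brap F/F replicates 2 and 3. The summed level of these 8 ran from 5721 to 8704 in Brap LKO and from 4004 to 5747 in Brap F/F livers. Of 8 macrophage, 8 sinusoidal endothelial and 8 lymphocyte markers, limma and edgeR called 0. DESeq2 called 1 lymphocyte marker (Ptprc), and limma without Brap F/F replicates 2 and 3 called 1 endothelial marker (Lyve1). The summed level of the 9 hepatocyte markers ran from 2461194 to 3350631 in Brap LKO and from 3036739.9 to 4454169 in Brap F/F livers, with no marker called (limma, 2 at an unadjusted p under 0.05). The part of these shifts in the values of Mup20 was not tested, and in whole tissue fewer cells of a type and less RNA per cell cannot be told apart.

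**Figure D2:**
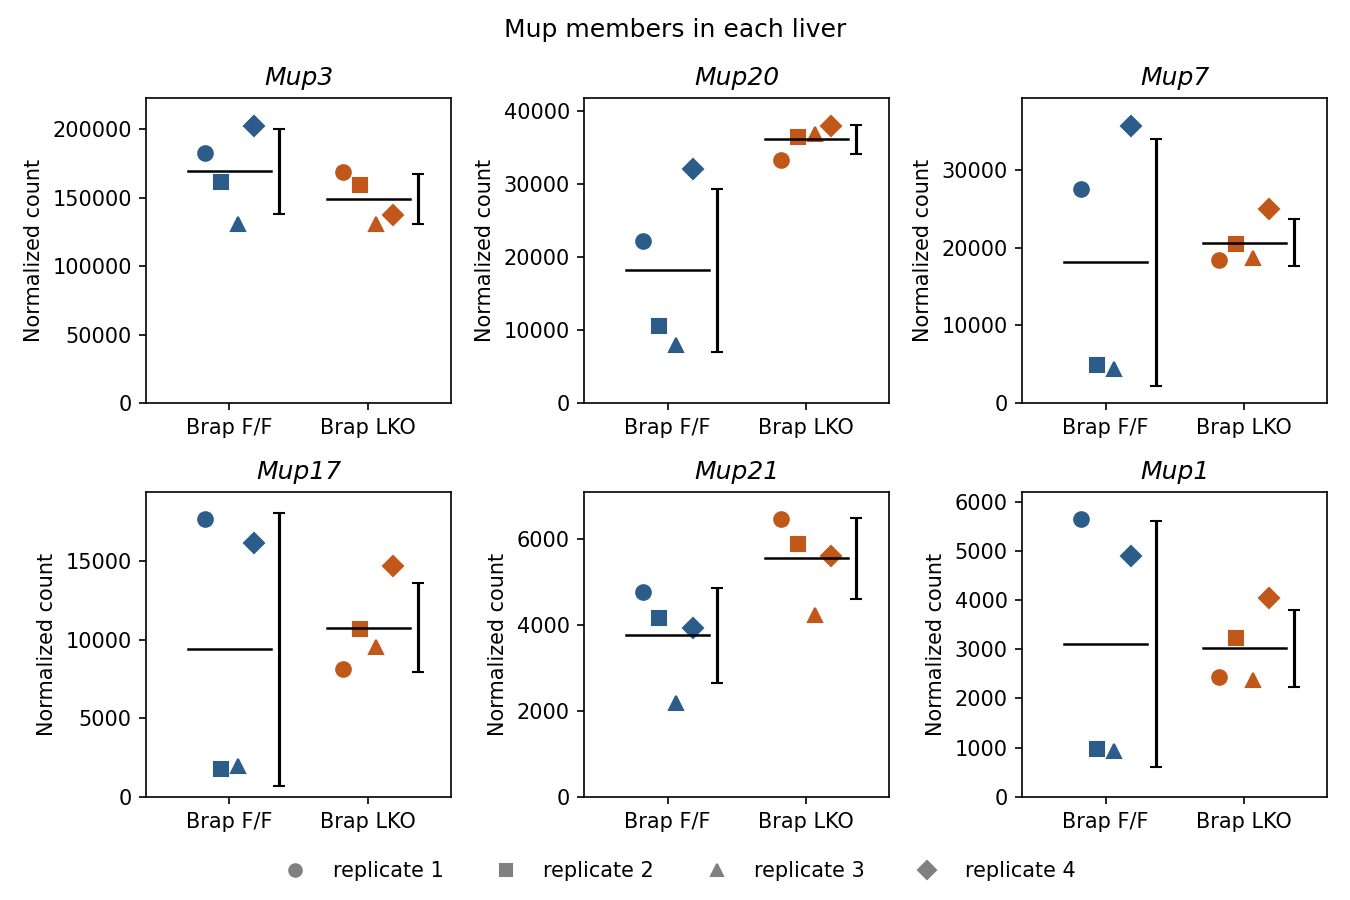
Each panel shows 1 Mup member. The vertical axis is the normalized count on a linear scale from 0, each symbol is a liver (its shape gives the replicate), the horizontal line is the group mean and the bar beside it spans 1 SD each way. All 4 Brap LKO livers lie above all Brap F/F livers for Mup20, and Brap F/F replicates 2 and 3 lie far below the others for Mup7, Mup17 and Mup1.

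Mup21, the member nearest the end of the cluster, had 6459, 5891, 4233 and 5620.3 normalized counts in the Brap LKO livers. It had 4764, 4161, 2195 and 3928 in Brap F/F livers. The groups overlapped only through Brap LKO replicate 3, which lay below Brap F/F replicate 1, and Brap F/F replicate 3 was the lowest liver. The log2 difference was 0.60 ± 0.23 (SE) and an adjusted p of 0.258 (limma), and the exact permutation test gave p = 0.0571. Without Brap F/F replicates 2 and 3 the difference was 0.34 ± 0.16.

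Mup3, a divergent member with most of its transcript unique, had the highest normalized count of the 6 in every liver. It stood at 168734, 159363, 130565 and 137244 normalized counts across Brap LKO livers and at 182103, 161184, 130495 and 202345 in Brap F/F livers. The groups overlapped, and Brap F/F replicates 2 and 3 were not set apart from the rest. From the lowest to the highest of the 8 livers it varied 1.55-fold, beside 9.89-fold for Mup17. The log2 difference was -0.17 ± 0.19 (SE), with an interval from -0.60 to 0.26 and an adjusted p of 0.686 (limma), and it was 0.18 under quantile normalization. A difference of any size inside that interval remains possible with 4 livers a group.

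Mup7, Mup1 and Mup17 belong to the near-identical central set, and Mup1 is known for a part in glucose and energy metabolism in mice. Mup7 had 18416, 20485, 18638 and 24938 normalized counts across Brap LKO livers and 27533, 4899, 4407 and 35696 in Brap F/F livers. The Brap LKO livers lay inside the range of the Brap F/F livers, of which replicates 2 and 3 were low and replicates 1 and 4 were the highest of all 8.

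Mup17 showed the same low and high livers, with 8146, 10711, 9547 and 14732 normalized counts across Brap LKO livers and 17663, 1787, 1949 and 16165 in the Brap F/F livers. Mup1 had 2444, 3225, 2366 and 4046 in the Brap LKO livers and 5635, 971, 941 and 4884 in the Brap F/F livers. For each of these genes the Brap LKO livers fell in the gap between the low and the high pair of Brap F/F livers.

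The group means of these central members were therefore close while their spreads differed. Mup7 averaged 20619 ± 3025 in Brap LKO and 18134 ± 15920.3 in Brap F/F livers (SD, n = 4 each), a log2 difference of 0.76 ± 0.65 (SE, limma, adjusted p = 0.589). Mup17 averaged 10784 ± 2833 and 9391 ± 8709, a log2 difference of 0.91 ± 0.75 (adjusted p = 0.578). Mup1 averaged 3020.2 ± 786 and 3108 ± 2503, a log2 difference of 0.40 ± 0.59 (adjusted p = 0.769). Since this test takes means of logs, low livers weigh more in it than in the ratio of means. The count models gave smaller differences, 0.20 (edgeR) and 0.19 (DESeq2) for Mup7, 0.21 and 0.20 for Mup17 and -0.029 and -0.041 for Mup1.

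Without Brap F/F replicates 2 and 3 the direction of all 3 central members turned. Mup7 was then lower in Brap LKO livers by a log2 difference of -0.62 ± 0.16 (SE, limma, adjusted p = 0.107), Mup17 by -0.68 ± 0.20 (adjusted p = 0.145) and Mup1 by -0.83 ± 0.21 (adjusted p = 0.0991). Mup1 changed sign also when either of these livers alone was left out, to -0.0057 without replicate 2 and -0.021 without replicate 3. These values rest on 2 control livers, and the direction of the central members thus depended on which control livers were used.

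**Figure D3:**
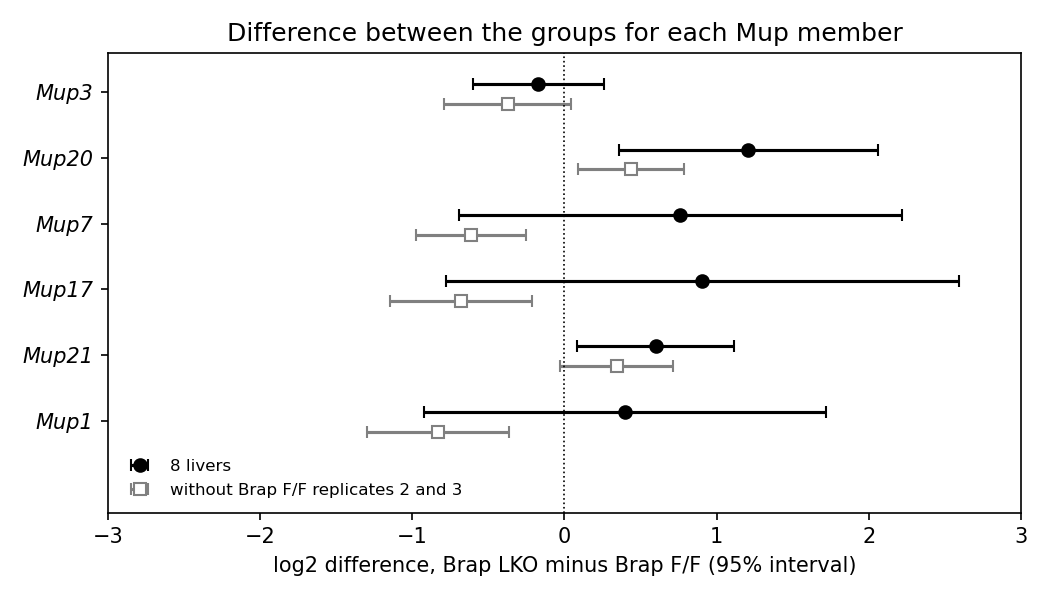
Points give the log2 difference of each Mup member (Brap LKO minus Brap F/F, horizontal axis) from limma with its 95% interval, black for all 8 livers and grey squares without Brap F/F replicates 2 and 3. The points of Mup20 and Mup21 lie to the right of 0 both ways, and those of Mup7, Mup17 and Mup1 move from the right of 0 to the left.

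The levels of different members can be compared only per length, here as normalized counts per kilobase of exon. In Brap LKO livers the order was Mup3 at 139491 ± 16879, Mup20 at 38901 ± 2135, Mup7 at 19960.5 ± 2928, Mup17 at 11633 ± 3056, Mup21 at 8199 ± 1397 and Mup1 at 1907 ± 496 (SD, n = 4). Of neighbours in that order, only the ranges of Mup17 and Mup21 overlapped. In Brap F/F livers Mup3 at 158269 ± 28744 lay above the ranges of all others, and below it the ranges of each pair of neighbours overlapped (Mup20 at 19566 ± 11961, Mup7 at 17554 ± 15412, Mup17 at 10130.7 ± 9395, Mup21 at 5556 ± 1628 and Mup1 at 1962 ± 1580.5). Mup3 ranked highest per kilobase and Mup1 lowest in all 8 livers, and Mup20 ranked above Mup7 in all but Brap F/F replicates 1 and 4. The position of Mup1 rests on the annotation, because 1584 bases of exon are assigned to it and 95.5% of the windows of its transcript occur in another Mup gene. The treatment of shared reads, which is not known, bears on the other positions too. Windows found in no other annotated gene made up 9.76% for Mup7, 21.9% for Mup17 and 49.5% for Mup20. They made up 80.7% for Mup21 and 84.4% for Mup3. The order, with Mup3 highest, therefore holds for the deposited values only.

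The summed normalized count of the 6 members was 225050.1 ± 16301 in Brap LKO and 221583 ± 67636 in Brap F/F livers (SD, n = 4 each). The 8 sums were 237500.3, 235993, 202201 and 224506 in the Brap LKO livers and 259811, 183504, 147982 and 295036 in Brap F/F livers. The Brap LKO sums lay between the low pair (replicates 2 and 3) and the high pair of Brap F/F sums. The mean log2 difference was 0.07 with all livers and -0.30 without Brap F/F replicates 2 and 3.

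Within that sum the make-up differed between livers. Mup3 held 71.0%, 67.5%, 64.6% and 61.1% of it in the Brap LKO livers and 70.1%, 87.8%, 88.2% and 68.6% in the Brap F/F livers. Brap F/F replicates 2 and 3 were thus the highest. Mup20 held 14.0%, 15.4%, 18.2% and 16.9% in the Brap LKO livers and 8.51%, 5.72%, 5.40% and 10.9% in the Brap F/F livers, so that its share, like its level, did not overlap between the groups. Wilson 95% intervals of these shares, which cover counting error only, were at most 0.419 percentage points wide. The shares take no account of transcript length or of unique windows (84.4% for Mup3, 9.76% for Mup7 and 4.54% for Mup1). They therefore compare livers and do not give the proportions of the members' transcripts.

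**Figure D4:**
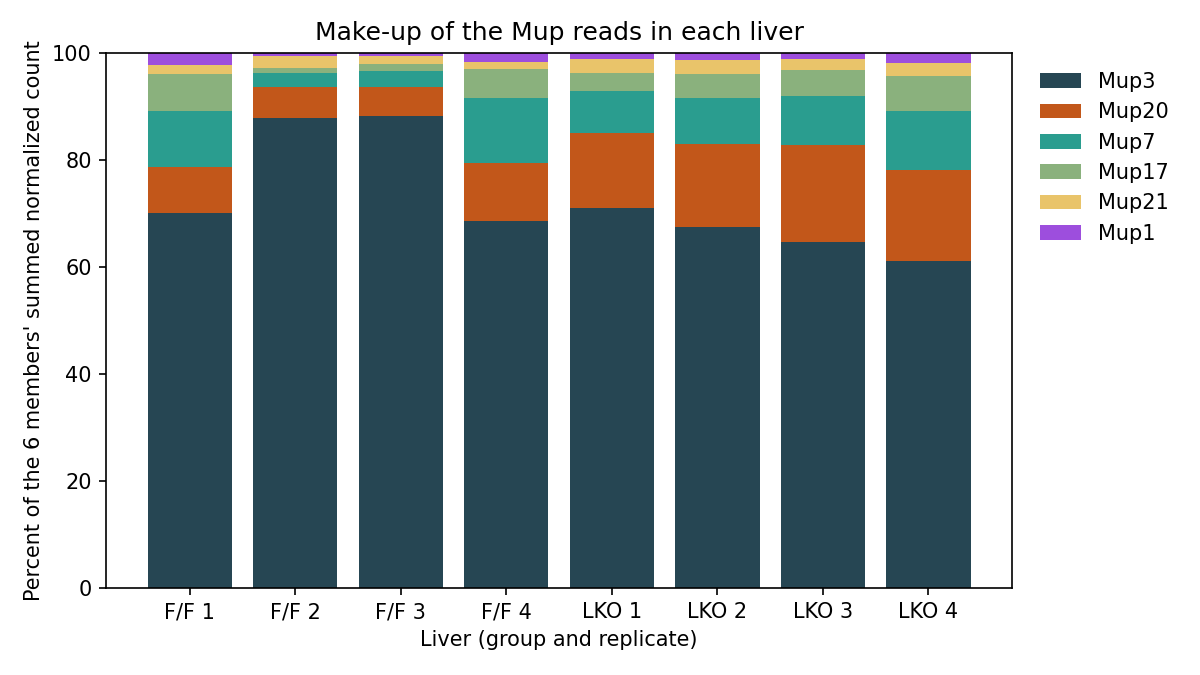
Stacked bars give the percent of the summed normalized count of the 6 Mup members that each member held in each liver (F/F, Brap F/F and LKO, Brap LKO, with the replicate number). Mup3 holds 61.1% to 88.2%, with Brap F/F replicates 2 and 3 highest, and the share of Mup20 is larger in every Brap LKO liver than in any Brap F/F liver.

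The members followed each other to different degrees over the 8 livers, described here by Pearson's r on the log2 scale. The central members ran closely together (r = 0.970 for Mup1 with Mup7, 0.982 for Mup1 with Mup17 and 0.989 for Mup7 with Mup17). Of the windows of Mup1, 73.0% also occur in Mup7 and 42.8% in Mup17, and the part of shared reads in these correlations was not tested. Mup20 followed Mup7 with r = 0.888 and Mup21 with r = 0.766. Mup3 followed Mup20 with r = 0.191 and Mup7 with r = 0.476. The 8 livers share a spread in which Brap F/F replicates 2 and 3 lie apart, so that these values carry no test.

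In 4 of the 6 members (Mup1, Mup7, Mup17 and Mup20), Brap F/F replicates 2 and 3 were the lowest 2 of the 8 livers, as they were in 11.8% of all genes tested. Among the other 15 protein-coding Mup rows, all of which were tested, the same order held in 14. The exception was Mup2, which stood at 109.8 and 169 in these livers and between 154 and 202 in the others, and of whose windows none is unique. Among 14 tested Mup pseudogenes the order held in 7.

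None of these 29 other Mup rows passed the test (limma, 2 at an unadjusted p under 0.05, and 0 called by edgeR and DESeq2 with 1 at that level each). Mup14, with the highest mean count among them, had 4200.1, 4659.5, 4989.7 and 7919.9 normalized counts across Brap LKO livers and 7432, 1577, 1141 and 9695 in the Brap F/F livers. Mup11 stood at 2693 to 4666 in Brap LKO livers and at 4360, 641, 486 and 5553 in Brap F/F livers. Mup9 stood at 865 to 2149.7 and at 2285, 131, 169 and 1127. In all 3, Brap F/F replicates 2 and 3 were the lowest livers, but unlike in the central members at least 1 Brap LKO liver lay above the lower of Brap F/F replicates 1 and 4. The median log2 difference of the 15 coding rows was 0.65, and without Brap F/F replicates 2 and 3 it was -0.35, when Mup12 was called lower in Brap LKO livers (log2 difference -1.04 ± 0.15, adjusted p = 0.0287).

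**Figure D5:**
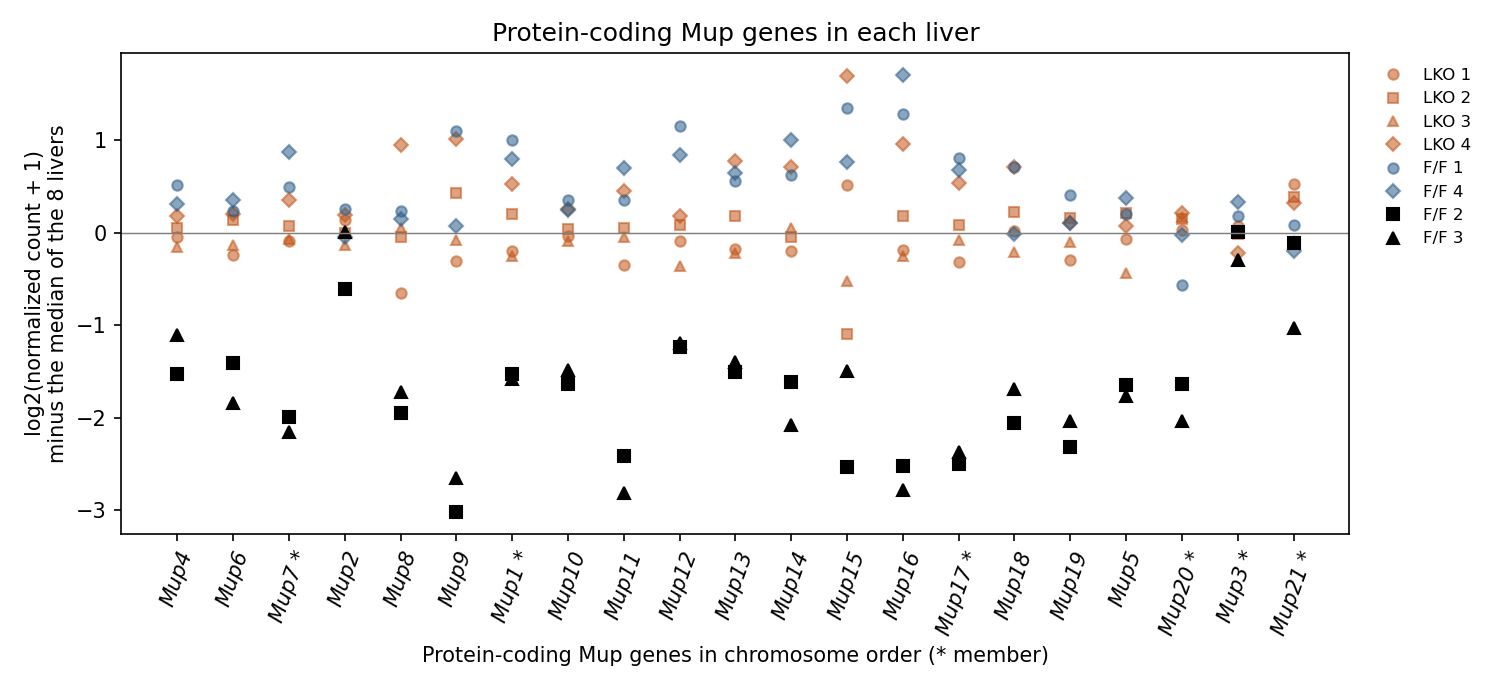
Each column is 1 of 21 protein-coding Mup genes in chromosome order (members marked with a star), and the vertical axis is log2(normalized count + 1) minus the median of the 8 livers of that gene. Black symbols are Brap F/F replicates 2 and 3, which are the lowest livers in 18 of the 21 genes, the exceptions being Mup2, Mup3 and Mup21.

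The genes that flank the cluster were compared in the same way. Of the 5 tested coding genes on each side (Ptbp3, Hsdl2, E130308A19Rik, Inip and Snx30 before it, and Zfp37, Slc31a2, Fkbp15, Slc31a1 and Cdc26 after it), none passed the test (limma, 1 at an unadjusted p under 0.05, and also 1 by edgeR and DESeq2). Brap F/F replicates 2 and 3 were the lowest livers for 3 of the 10 (Inip, Snx30 and Slc31a2), beside 11.8% of all genes tested. Snx30, a sorting nexin, stood at 319 and 358 there and between 377 and 550.5 in the other livers. Slc31a1, a copper transporter, stood at 5487 and 5873 there and between 5392 and 6761 elsewhere. The gene that limma marked at an unadjusted p under 0.05 was Zfp37 (log2 difference 1.22 ± 0.34, SE, adjusted p = 0.145). Its counts were low, at 15.5 to 27.2 in Brap LKO and 4.56 to 12.2 in Brap F/F livers. Every Brap LKO liver thus lay above every Brap F/F liver for 1 of the 10, beside 5.48% of all genes tested.

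Growth hormone signalling is a known driver of these genes, and its components were examined from a list of 13 genes. None passed with limma (2 at an unadjusted p under 0.05) or edgeR (2), and DESeq2 called Socs2, and the median log2 difference was 0.06 beside -0.01 for all genes tested. The receptor gene Ghr stood between 15721 and 19637 in Brap LKO and between 15735 and 23073 in Brap F/F livers. Stat5b stood between 1369 and 1701 in Brap LKO and between 1445 and 1581 in Brap F/F livers. In Brap F/F replicates 2 and 3 Ghr was at 19852 and 23073, the highest levels of the 8 livers, and Stat5b at 1445 and 1545, within the range of the others.

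Socs2, a feedback inhibitor that growth hormone induces, had 489, 446, 724 and 285 normalized counts across Brap LKO livers and 85.5, 136, 301 and 189 in the Brap F/F livers. Only Brap LKO replicate 4 and Brap F/F replicate 3 overlapped. Its log2 difference was 1.51 with an adjusted p of 0.108 (limma). Cish, another feedback inhibitor, ranged from 125 to 898 in Brap LKO and from 283 to 1507 in Brap F/F livers. Igf1, the main hormone that growth hormone evokes from the liver, stood between 20319.7 and 25332 over all 8 livers, so that its range was narrow beside that of the central Mup members.

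Among 16 liver transcription factors none passed the test (limma, edgeR and DESeq2, each with 1 at an unadjusted p under 0.05), with a median log2 difference of 0.0049. Zhx2, a transcription factor known to act on Mup genes, stood between 631 and 796 over the 8 livers. Bcl6, a repressor that is higher in male liver, ranged from 209 to 1750.4 in Brap LKO and from 283 to 837 in Brap F/F livers. Cux2, a factor of the female liver, was at most 39.5 normalized counts in any liver, with 35.6 and 17.9 in Brap F/F replicates 2 and 3.

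Other genes with a known sex bias in liver were examined in the same livers. Of 16 male-biased genes none passed (limma, 4 at an unadjusted p under 0.05, edgeR 2 and DESeq2 1). Brap F/F replicates 2 and 3 were the lowest livers for 10 of the 16, as they were in 11.8% of all genes tested. Selenbp2, a selenium-binding protein, stood at 896 and 548 there and between 15392 and 28756 in the other 6 livers. Serpina1e, a protease inhibitor, stood at 62894 and 24669 there and between 175546 and 319969 elsewhere. The cytochrome P450 gene Cyp2d9 did not follow this order, with 32681 and 31084 there and 25119.9 to 37600.0 elsewhere.

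Of 14 tested female-biased genes none passed with limma (2 at an unadjusted p under 0.05) or edgeR (5), and DESeq2 called Cyp2b9. Brap F/F replicates 2 and 3 were the highest livers for 9 of the 14, as they were in 14.4% of all genes tested. Hamp2, a hepcidin gene, had 1469 and 1542 normalized counts in those livers and between 83.4 and 382 in the others. Cyp17a1, a steroid hydroxylase, had 507 and 466 there and between 272 and 987 elsewhere. Whether the animals, the tissue pieces or the libraries set these livers apart was not tested.

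The genes that followed the sum of the 6 members most closely over the 8 livers were sought among all tested genes outside the family. They were Ppib, which encodes a folding enzyme of the endoplasmic reticulum, Tspyl4, Dnmt1, the maintenance DNA methyltransferase, Arl8a and Arhgap4, with Pearson's r from 0.965 to 0.974. Ppib stood at 4739 and 4293 in Brap F/F replicates 2 and 3 and between 5017 and 6833 in the other 6 livers. With Mup3 left out of the sum, the closest 5 were instead Selenbp2, 5033406O09Rik, Icam1, C9 and Tnfsf12, with r from 0.985 to 0.994.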

How the data were processed

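The authors extracted RNA with TRIzol and RNeasy columns, prepared libraries from mRNA (Universal Plus kit, NuGEN), read single ends of 50 bases and aligned them with STAR 2.6.0c to mm10 (per the labels and the study's methods). The counting tool, annotation release, use of strand and treatment of reads with several alignments are not given in the sources used here. The deposited signal is a normalized count, for which the authors scaled the reads of every gene by the DESeq2 size factor of its library. Of its values, 100% were whole multiples (within 0.01 reads) of what 1 read is worth, so reads were recovered for the count tests. A deposited DESeq2 comparison of the groups (fold changes and p-values) was not used.

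The main test was limma 3.58.1 (R 4.3.3; trend) on log2(normalized count + 1) for 15352 genes with a mean of at least 5, with Benjamini-Hochberg adjustment over all of them and a threshold of 0.05. The paper's DESeq2 models counts, which the deposited values are not, so edgeR 4.0.16 and DESeq2 1.42.0 were run on recovered reads as alternatives, beside other pseudocounts, filters, scalings and left-out livers. The fitting script was tested on simulated data. Members were also compared with a two-sided exact permutation test. Animals are separate mice. The labels give no pairing of the livers, and the main test used none.

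Positions and transcripts came from GENCODE vM21 on the same build, promoters from RefSeq, and sequence work used Biopython 1.88. The 6 members were set by symbol, and members, gene lists and tests were chosen with earlier results of these data known. The text names the members, the other Mup rows, genes of the growth hormone and transcription factor lists, the 4 most abundant and up to 4 called genes of the other lists, the flanking genes and the 5 most alike genes. Library molecules carried no identifiers, so intervals on shares cover counting error only, and a fold change on the log2 scale with a pseudocount understates changes of low genes.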

Additional observations from a re-analysis of the deposited data

How the results depend on the processing

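Of 173 values recomputed under an alternative, 140 kept their direction and side of the threshold, or stayed within the limit set for counts. The edgeR test gave a log2 difference of -0.029 for Mup1, 0.20 for Mup7 and 0.21 for Mup17, and DESeq2 gave -0.041, 0.19 and 0.20. For Mup1, leaving out single livers moved it between -0.021 and 0.84 (-0.0057 without Brap F/F replicate 2 and -0.021 without replicate 3), and leaving out Brap F/F replicates 2 and 3 together, an alternative chosen after seeing the data, gave -0.83. That alternative gave -0.62 for Mup7 and -0.68 for Mup17, and quantile normalization gave 0.18 for Mup3. With single livers left out, Mup20 ranged from 0.89 to 1.55, with adjusted p from 0.0461 (without Brap F/F replicate 4, limma) to 0.364, and over all its alternatives up to 0.385. Mup21 ranged from 0.36 to 0.73, Mup7 from 0.28 to 1.28, Mup17 from 0.36 to 1.46 and Mup3 from -0.29 to -0.079. The cause of these changes was not tested beyond the livers left out.

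The number of genes higher in Brap LKO was 102 in the main test, 459 with the same total per liver, 62 with quantile normalization, 448 with DESeq2 and 11 to 178 with single livers left out. The number lower was 16, and 9 with a minimum mean of 20, 159 with DESeq2, 47 without Brap F/F replicates 2 and 3, and 4 to 54 with single livers left out. Giving each liver the same total moved the median log2 difference of all genes from -0.01 to 0.15, and relative to that shift no member moved across the threshold. Of the 5 genes most like the sum of the members, 0 stayed among the 5 when group means were removed and 0 when Mup3 was left out.

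The labels give no pairing of the livers, and the correlations of same-numbered deviations were low (-0.129, 0.0034, 0.196 and 0.292). Brap LKO replicates 2, 3 and 4 still matched the same-numbered Brap F/F liver best, and Brap LKO replicate 1 matched Brap F/F replicate 3 best. Whether the replicate numbers pair the livers is thus not settled. With the replicate block, 80 genes were higher and 15 lower, and the log2 difference of 0.60 for Mup21 had an adjusted p of 0.0617 (limma). The block left no member past the threshold. The lower series of animal numbers held 3 Brap LKO and 1 Brap F/F livers and the higher series 1 and 3, so that series and group are partly confounded. With the series as a covariate (limma), the log2 difference was 0.10 for Mup1, 0.46 for Mup7, 0.52 for Mup17, -0.25 for Mup3, 0.48 for Mup21 and 1.06 for Mup20 (adjusted p = 0.385), and no member passed. All members were counted far above the limit that 0 reads allow, but sequence identity limits what the reads of Mup1, Mup7 and Mup17 can be assigned to.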

Other observations

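Other lipocalins and other secreted proteins of hepatocytes were compared with the Mup genes. Brap F/F replicates 2 and 3 were the lowest livers for 3 of 10 tested lipocalins outside the family and for 2 of 16 abundant plasma proteins, beside 11.8% of all genes tested. They were the highest livers for 1 of the lipocalins, for 4 of the plasma proteins (Alb, Ttr, Apoa2 and Apoh) and for 5 of 9 hepatocyte markers, beside 14.4% of all genes tested. Of the 10 lipocalins none passed (limma, 1 at an unadjusted p under 0.05, edgeR 1 and DESeq2 2), with a median log2 difference of -0.18 (-0.47 without Brap F/F replicates 2 and 3) beside -0.01 for all genes tested. Rbp4, the retinol carrier, stood at 97666 and 88107 in Brap F/F replicates 2 and 3 and between 61571 and 77354 in the other 6 livers. Orm1, an acute-phase lipocalin, stood at 7868 and 7478.2 in those livers and between 11446 and 29619 elsewhere, and Ambp, the precursor of a protease inhibitor, at 64480.1 and 60341 beside 55664 to 93821. C8g, a complement component of the lipocalin family, was lower in every Brap LKO liver (5305 to 6658) than in any Brap F/F liver (7069 to 7289), with an adjusted p of 0.216 (limma). That order held for 1 of the 10 lipocalins, and its share among all genes tested was not counted.

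Of the 16 abundant plasma proteins none passed (limma, 2 at an unadjusted p under 0.05, edgeR 3 and DESeq2 5), with a median log2 difference of -0.17 (-0.27 without Brap F/F replicates 2 and 3). Alb, the most abundant, stood at 3058028 and 2500570.5 in those livers and between 1438250 and 2273907 elsewhere. Apoa1, the main protein of high-density lipoprotein, stood at 276972 and 226795 in Brap F/F replicates 2 and 3 and between 233188 and 309917 elsewhere. Ahsg, which encodes fetuin-A, stood at 207228 and 165296 there and between 205110.4 and 309078 elsewhere. When Brap F/F replicates 2 and 3 were left out, 2 male-biased genes were called, Cyp4a12b higher (log2 difference 0.81, adjusted p = 0.0416, limma) and Susd4 lower (-0.59, adjusted p = 0.0422, limma) in Brap LKO livers. Both were named after their values had been seen.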
